A study of Mus musculus with 1 sample.

Results

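Expression of 10 genes of the WNT pathway was examined in single cells of the postnatal mouse testis. The genes were chosen by symbol, namely the ligands Wnt4, Wnt5a and Wnt6, the R-spondin gene Rspo1 and its receptor gene Lgr4, the inhibitor genes Sfrp1 and Shisa6, and the intracellular genes Ctnnb1, Lef1 and Axin2, and each was matched to 1 row among the 27998 genes listed in the count matrix. The cells came from 1 wild-type library of C57BL/6 mice at postnatal day 8, in which testis cells selected for the surface protein THY1 by magnetic beads were mixed with a small number of unselected testis cells. Equal numbers of cells from 3 mice were pooled before they were loaded on a 10x Genomics Chromium controller, so the mice cannot be told apart, there is no replicate of the library, and no test between samples was possible. The library of Zscan2 knockout mice was not analysed here, and the shares of cell types follow from the selection and the mixing.

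WNT proteins are secreted lipid-modified ligands that bind Frizzled receptors and LRP co-receptors on neighbouring cells. In the canonical branch this stabilises beta-catenin, the product of Ctnnb1, which enters the nucleus and acts with TCF and LEF proteins on target genes such as Axin2, itself a negative feedback component. R-spondins increase the response by binding LGR receptors and removing the ubiquitin ligases ZNRF3 and RNF43 that clear Frizzled proteins, whereas secreted Frizzled-related proteins such as SFRP1 bind WNT proteins outside the cell. In the testis, WNT signals pass between Sertoli cells, which enclose the germ cells, the interstitial and peritubular cells around the tubules, and the spermatogonia, of which a small fraction are spermatogonial stem cells (SSCs).

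The matrix held 970 cell barcodes, none of them duplicated, with 11358045 unique molecular identifiers (UMIs), between 2655 and 44915 per barcode and with a median of 9115. After filtering, 920 cells were clustered, and clusters were named from marker genes. This gave 324 germ cells, of which 112 were SSC-like, 79 were progenitor-like and 133 were differentiating-like, and 255 Sertoli-like, 186 stromal-like, 94 peritubular myoid-like and 35 macrophage-like cells. Which germ cells counted as SSC-like or as progenitor-like depended on the clustering, as given below. A further cluster of 26 cells was led by Xcl1, Gzmc, Klrd1, Ncr1, Cd3g, Gzma and Ctsw together with Rgs5 and Higd1b. It was left without a name, although Cd3g is one of the T cell markers used. The median depth was 22293 UMIs for an SSC-like cell, 19446 for a progenitor-like and 10878 for a differentiating-like one, against 8343 for Sertoli-like, 8371 for stromal-like and 7446 for myoid-like cells. Levels are therefore given as counts per 1000000 (CPM), a gene's UMIs in all cells of a class divided by the class total, with an exact Poisson 95% interval, and ratios of levels with an exact conditional binomial 95% interval. UMIs were read from the 3′ end of transcripts and were not divided by length. All intervals cover counting error only, and since the same counts were used to form the clusters they describe these cells and test nothing. Among the 10 genes, Wnt5a and Sfrp1 were among the 898 variable genes used to cluster all cells, and none was among the 899 used to cluster the germ cells again.

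Transcripts that escape from broken cells give a low level of every abundant gene in all droplets. The 7 Sertoli cell markers, summed, stood at 8788 CPM in Sertoli-like cells and between 92.7 and 109 CPM in the 3 germ cell classes, which is 1.05% to 1.24% of the Sertoli-like level. The 7 stromal markers stood at 7842 CPM in stromal-like cells, at 0.628% to 0.741% of that level in the germ cell classes and at 0.461% in Sertoli-like cells. In myoid-like cells the same stromal list reached 33.8%, and as this class scored for stromal markers itself, the list gives no background level there. The other percentages are set beside the levels below as a guide to transcripts made elsewhere, whose source was not tested. The 6 germ cell markers stood at 1350 CPM in germ cells and at 1.60% to 2.45% of that in the somatic classes.

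All 10 genes were detected in kept cells, with totals between 39 UMIs for Shisa6 and 1553 UMIs for Wnt6. In the GENCODE annotation of GRCm38 (mm10), Wnt6 lies on chromosome 1 from 74771892 to 74785322, Wnt4 on chromosome 4 from 137277489 to 137299726, Wnt5a on chromosome 14 from 28504750 to 28527448 and Rspo1 on chromosome 4 from 124986430 to 125009099. Lgr4 lies on chromosome 2 from 109917647 to 110014257, Sfrp1 on chromosome 8 from 23411502 to 23449632, Ctnnb1 on chromosome 9 from 120929216 to 120960507 and Lef1 on chromosome 3 from 131110471 to 131224356. Axin2 lies on chromosome 11 from 108920349 to 108950783, and Shisa6 on the minus strand of the same chromosome from 66211725 to 66525964, the other 9 genes being on the plus strand. An annotated gene on the other strand overlaps 7 of the 10, all but Wnt4, Sfrp1 and Lgr4, and whether the authors' counting used the strand is not given in the sources used here.

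RefSeq upstream stretches of 250 bases before an annotated start (GRCm38.p6) were found for 7 of the 10 genes, in 11 stretches because Lef1 and Ctnnb1 have several starts. They are shown for the ligand gene with the most UMIs, for the target gene Axin2, and for the start of Lef1 whose stretch holds letters of the TCF and LEF binding motif. Capitals mark CTTTGA or CTTTGT on either strand, and each stretch reads 5′ to 3′ on the plus strand.
Wnt6, chr1:74771642-74771891: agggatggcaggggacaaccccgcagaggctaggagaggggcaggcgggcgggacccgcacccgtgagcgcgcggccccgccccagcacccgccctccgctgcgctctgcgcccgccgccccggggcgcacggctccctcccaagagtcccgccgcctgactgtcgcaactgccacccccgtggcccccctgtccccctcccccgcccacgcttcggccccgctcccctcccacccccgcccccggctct
Axin2, chr11:108920099-108920348: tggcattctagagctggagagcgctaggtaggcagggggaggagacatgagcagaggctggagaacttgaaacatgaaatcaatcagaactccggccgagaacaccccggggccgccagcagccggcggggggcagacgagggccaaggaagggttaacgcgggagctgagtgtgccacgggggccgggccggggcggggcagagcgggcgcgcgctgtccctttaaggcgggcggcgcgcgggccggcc
Lef1, chr3:131156044-131156293: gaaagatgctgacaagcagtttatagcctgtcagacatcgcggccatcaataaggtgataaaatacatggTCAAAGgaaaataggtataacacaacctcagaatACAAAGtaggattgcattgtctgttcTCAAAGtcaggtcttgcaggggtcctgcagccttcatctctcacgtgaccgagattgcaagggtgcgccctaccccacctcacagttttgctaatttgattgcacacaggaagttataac
The Lef1 stretch has 3 matches, while the other 3 Lef1 stretches and those of the other genes have none. Over all 32851 RefSeq stretches of this length, 13.8% hold CTTTGA and 16.5% hold CTTTGT on either strand, so such letters are common by themselves, and their absence from a window says nothing about binding elsewhere. The stretch of Wnt6 is 79.6% G and C and that of Axin2 69.2%, against a median of 52.4% over all stretches.

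Wnt6 was a transcript of Sertoli-like and stromal-like cells. Its level was 483 CPM (455 to 512) in Sertoli-like cells, 244 CPM (220.4 to 269) in stromal-like cells and 18.9 CPM (10.3 to 31.7) in myoid-like cells. The level in Sertoli-like cells was 1.98 times that in stromal-like cells (1.77 to 2.23), and that in stromal-like cells 12.9 times that in myoid-like cells (7.59 to 23.8). At least 1 Wnt6 UMI was found in 89.8% of Sertoli-like and 83.3% of stromal-like cells, and after thinning every cell to 5000 UMIs in 86.0% of 235 and 68.0% of 172 cells. Sertoli-like cells had a median of 4 and at most 17 Wnt6 UMIs, and stromal-like cells a median of 2 and at most 12. The stromal-like level was 50.5% of the Sertoli-like one, where the Sertoli markers reached 2.78%.

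**Figure D1:**
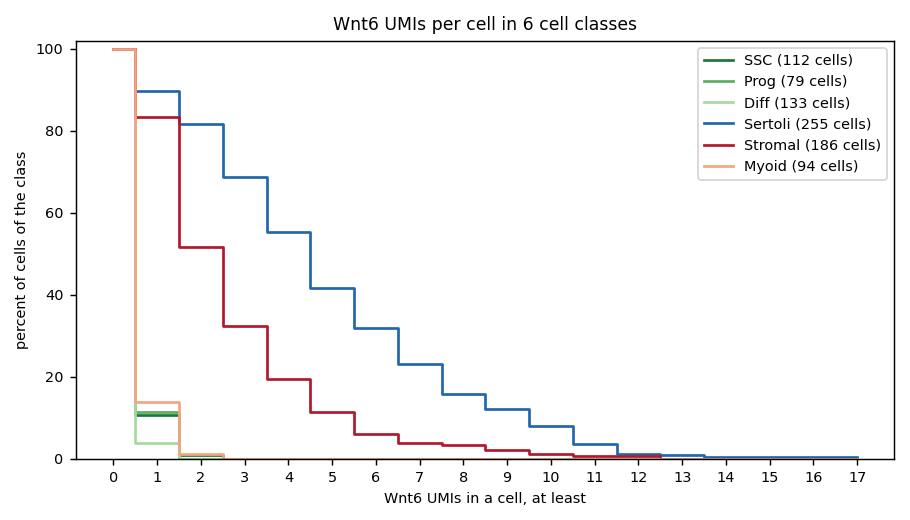
Percent of cells of a class (y axis) with at least the number of Wnt6 UMIs on the x axis, drawn as 1 line per class and not corrected for depth. At 1 UMI on the x axis the Sertoli-like line stands at 89.8% and the stromal-like line at 83.3% of cells. From there on the lines of the germ cell classes lie at 11.4% or below.

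In germ cells Wnt6 lay near the share of the Sertoli-like level that the Sertoli markers reached, and the source of these UMIs was not tested. The 13 UMIs of SSC-like cells gave 5.32 CPM (2.83 to 9.09), the 9 of progenitor-like cells 6.22 CPM and the 5 of differentiating-like cells 3.01 CPM. These levels are 1.10%, 1.29% and 0.623% of the Sertoli-like level, where the Sertoli markers reached 1.23%, 1.05% and 1.24%. The 14 UMIs in myoid-like cells amount to 3.92% of the Sertoli-like level (2.14% to 6.60%), where the Sertoli markers reached 1.29%, and to 7.76% of the stromal-like level. Over the alternatives the log2 ratio of Wnt6 in myoid-like over germ cells ran from 1.59 to 3.42, against 1.96, with the highest value under the 5% mitochondrial limit. Over the clusters with at least 20 cells, the genes whose levels were most like those of Wnt6 were Kitl, the gene of the KIT ligand (Pearson r = 0.963 over 11 clusters of 1 library, on log2(CPM + 1)), Ddit3 (r = 0.963) and Ptprd (r = 0.962).

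Wnt5a, the gene of a ligand best known for non-canonical signalling, was highest in the cells outside the tubules. It stood at 73.7 CPM (61.2 to 88.1) in stromal-like cells, 59.4 CPM (43.2 to 79.8) in myoid-like cells and 27.4 CPM (21.1 to 35.1) in Sertoli-like cells. The stromal-like and myoid-like levels did not differ beyond counting error (ratio 1.24, 0.872 to 1.79), and the myoid-like level was 2.17 times the Sertoli-like one. A UMI was found in 42.5% of stromal-like, 36.2% of myoid-like and 18.4% of Sertoli-like cells. Germ cells had 12 Wnt5a UMIs in all, 9 of them in SSC-like cells (3.68 CPM, 1.68 to 6.99), 3 in differentiating-like cells and 0 of 1446223 UMIs in progenitor-like cells, where 3 counts, the limit used for a count of 0, would be 2.07 CPM. The SSC-like level was 4.99% of the stromal-like level (2.23% to 9.80%), where the stromal markers reached 0.730%.

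Wnt4, a ligand gene with roles in gonad and kidney development, showed the same order outside the germ line at lower counts. It had 31 UMIs in stromal-like cells (18.9 CPM, 12.8 to 26.8) and 10 in myoid-like cells (13.5 CPM, 6.48 to 24.8), which did not differ beyond counting error. Sertoli-like cells had 4 UMIs (1.74 CPM) and germ cells 7 UMIs (1.26 CPM, 0.507 to 2.60). The stromal-like level was 10.8 times the Sertoli-like one, the ratio of the Sertoli-like to the stromal-like level being 0.0923 (0.0237 to 0.261). The genes most like Wnt4 over the 11 clusters were Col5a2 (r = 0.976), Ppic (r = 0.973) and Ccdc80 (r = 0.965), and those most like Wnt5a were Tmem47 (r = 0.933), Mdk (r = 0.931) and H1f0 (r = 0.913).

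**Figure D2:**
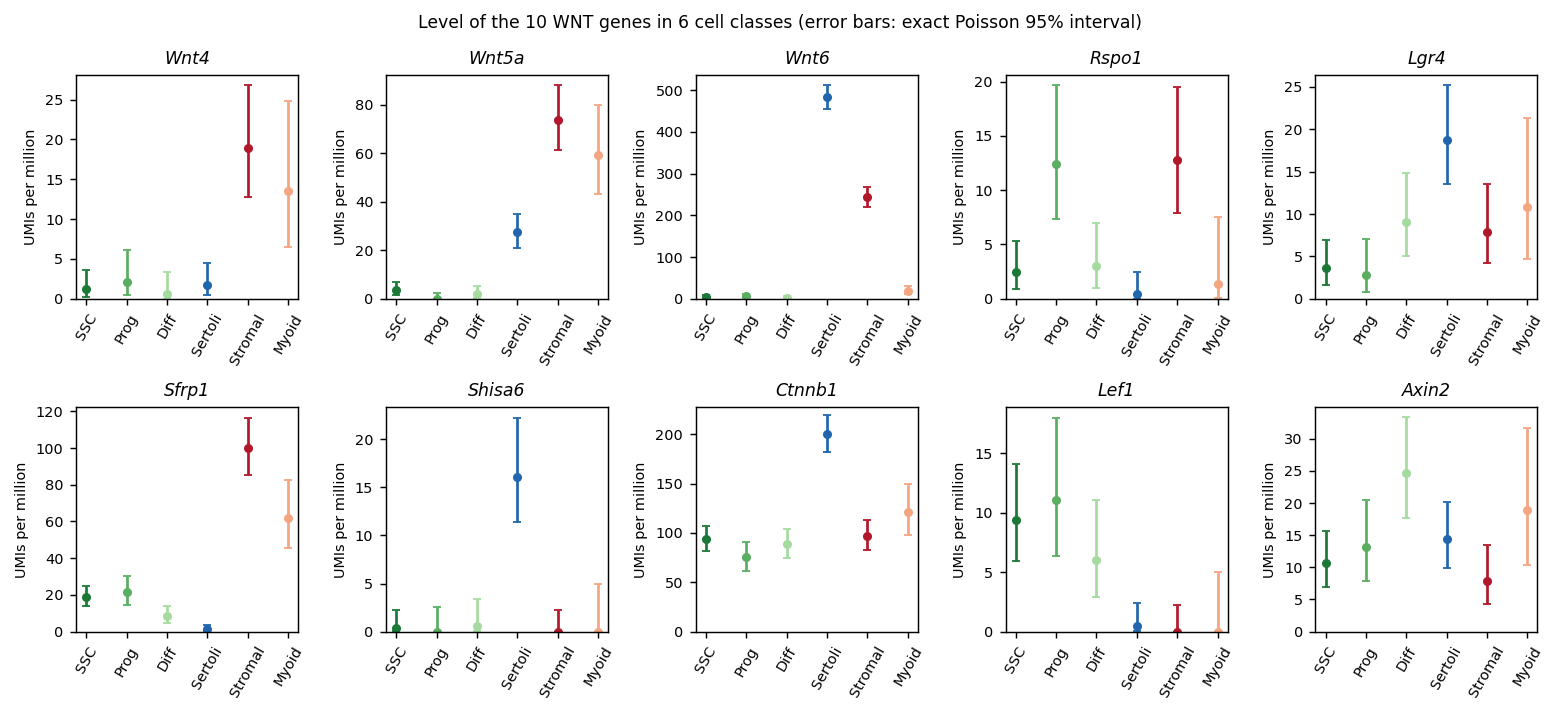
Level of each of the 10 genes in CPM (linear y axis from 0, different for each gene) in 6 classes (SSC-like, then Prog for progenitor-like, Diff for differentiating-like, and the Sertoli-like, stromal-like and myoid-like cells), points being summed levels and bars the exact Poisson 95% interval. Wnt6 and Ctnnb1 peak in Sertoli-like cells, Sfrp1 peaks in stromal-like cells, and Shisa6 is near 0 outside Sertoli-like cells. Wnt4 and Wnt5a are highest in stromal-like and myoid-like cells, whose intervals overlap. Lef1 lies between 6.01 and 11.1 CPM in germ cells and at or below 0.436 CPM in the somatic classes drawn. Its value of 0 in myoid-like cells has an interval up to 4.98 CPM.

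The Sertoli-like cells were not alike in their ligands. They formed 3 clusters, one of 132 cells led by Spata21 and Tmie, one of 78 cells led by Cidea, Fstl3 and Nr0b1, and one of 45 cells led by Arhgef39, Lockd and the cell cycle genes Psrc1 and Cdc25b. Wnt5a stood at 60.9 CPM (43.9 to 82.3) in the Cidea-led cluster, at 15.8 CPM (9.39 to 25.0) in the Spata21-led cluster and at 6.40 CPM (1.32 to 18.7) in the Arhgef39-led cluster, so that the Cidea-led cells reached the level of the myoid-like class. Wnt5a was 1 of the genes used for clustering. When all genes of the pathway lists were left out of the variable genes, a Cidea-led cluster of 79 cells still had 59.8 CPM, against 15.8 CPM and 6.56 CPM in the other two. The Cidea-led cluster also had the highest level of Uchl1, a ubiquitin hydrolase gene used as a marker of spermatogonia, at 204 CPM against 28.2 and 36.3 CPM, while Kit had 1 UMI there.

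Wnt6 was high in all 3 Sertoli-like clusters, at 569 CPM (526 to 615) in the Spata21-led, 422 CPM (365 to 485) in the Arhgef39-led and 381 CPM (336 to 430) in the Cidea-led cells, and the last pair of intervals overlap. Shisa6 stood at 22.9 CPM in the Spata21-led cells and at 10.1 and 8.53 CPM in the other two, differences within counting error. Axin2 stood at 5.80 CPM (1.58 to 14.8) in the Cidea-led, 15.8 CPM (9.39 to 25.0) in the Spata21-led and 23.5 CPM (11.7 to 42.0) in the Arhgef39-led cells. The Cidea-led level was 0.247 of the Arhgef39-led one, with an interval on the log2 scale from -4.12 to -0.26. The Spata21-led and Cidea-led levels did not differ beyond counting error (log2 ratio 1.45, -0.15 to 3.47). Lgr4 was between 18.5 and 19.2 CPM in all 3. With the count split, in which each UMI was drawn at random into 1 of 2 sets, the first used to form the clusters and the second measured, the Sertoli-like cells formed only 2 clusters, of 217 and 38 cells, so the Cidea-led cells were not set apart there. They were not set apart either with variable genes by vst, with 20 principal components, at a resolution of 0.3 or with a mitochondrial limit of 5%, so the values given for this cluster depend on the clustering.

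The stromal-like class formed 1 cluster at the resolution used and was divided at a resolution of 1.2 into 122 cells led by Clec3b, Dpt and Lum and 64 cells led by Kcnk3, Aqp2 and Cyp26b1. Wnt5a was 3.66 times higher in the first (101 against 27.7 CPM), and Rspo1 was found there in 20 of its 21 stromal-like UMIs (19.5 against 1.63 CPM, log2 ratio 3.58, 0.94 to 8.95). Wnt6 was 1.30 times higher in the first (log2 ratio 0.38, 0.07 to 0.70). Sfrp1 went the other way, at 84.7 CPM against 125 CPM (ratio 0.676). Wnt5a and Sfrp1 were among the genes used for clustering, and this division was not repeated without them. Wnt4 did not differ beyond counting error, at 15.6 and 24.4 CPM. The Kcnk3-led cells held most UMIs of the steroidogenic Leydig cell genes, with 306 CPM of Cyp11a1 found in 15.6% of its cells against 2.92 CPM in the Clec3b-led cells, and the part of these cells in the differences was not tested.

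**Figure D3:**
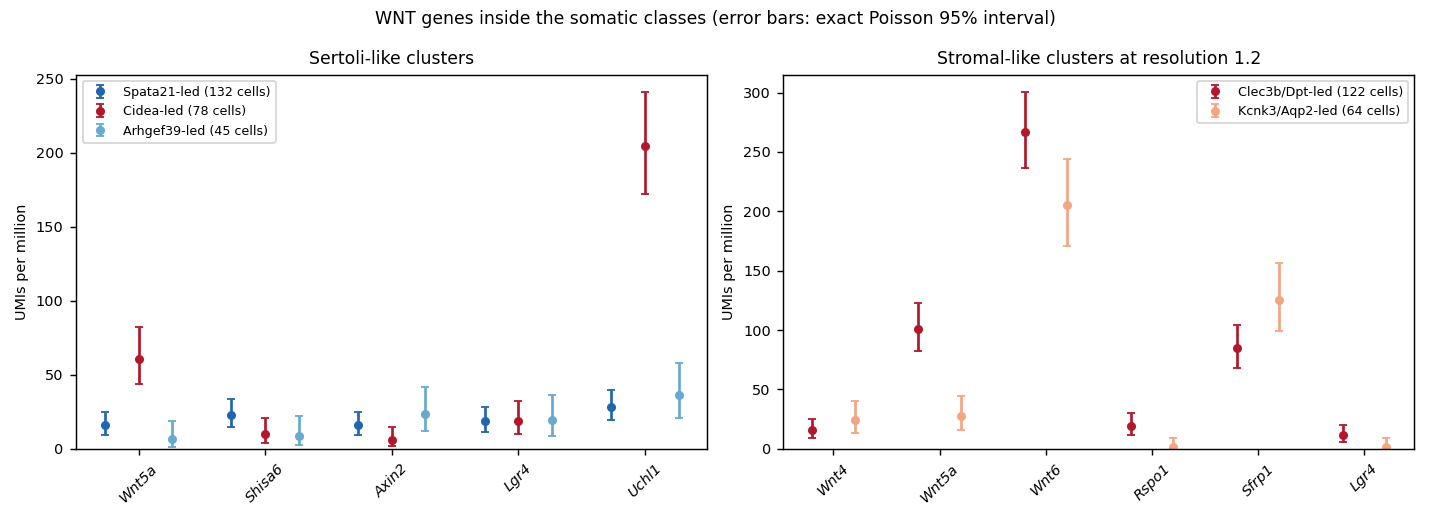
Level in CPM (linear y axis from 0) of selected genes in the 3 Sertoli-like clusters (left) and in the 2 stromal-like clusters formed at a resolution of 1.2 (right), with exact Poisson 95% intervals as bars. Wnt5a stands at 60.9 CPM in the Cidea-led Sertoli-like cells against 15.8 and 6.40 CPM in the other two, and at 101 against 27.7 CPM in the stromal-like clusters.

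Rspo1, whose product strengthens WNT signals and is needed for ovary development, had its highest levels in stromal-like and progenitor-like cells. It had 21 UMIs in stromal-like cells (12.8 CPM, 7.92 to 19.6) and 18 UMIs in progenitor-like cells (12.4 CPM, 7.38 to 19.7), and these levels did not differ beyond counting error (ratio on the log2 scale 0.04, -0.94 to 1.03). SSC-like cells had 6 UMIs (2.45 CPM) and differentiating-like cells 5 UMIs (3.01 CPM). The SSC-like level was 0.197 of the progenitor-like one (0.0641 to 0.519), and over the alternatives in which both classes could be named the log2 ratio lay between -3.05 and -1.62. In the count split, where the UMIs measured took no part in the clustering, its interval included 0 (-2.92, -8.41 to 0.04). Sertoli-like and myoid-like cells had 1 UMI each. The progenitor-like level was 97.3% of the stromal-like level, where the stromal markers reached 0.741%. The SSC-like level was 19.2% of the stromal-like level (6.335% to 49.1%), where the stromal markers reached 0.730%. For differentiating-like cells it was 23.5% (6.92% to 64.0%), where the stromal markers reached 0.628%. The progenitor-like cluster also had Hba-a1 and Hbb-bs among its leading genes, through 1 barcode rich in hemoglobin UMIs, and leaving out that barcode changed none of the counts of genes given below.

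Lgr4, the receptor gene for R-spondins, was found at low levels in each of the 6 classes compared. It had 43 UMIs in Sertoli-like cells (18.7 CPM, 13.6 to 25.2), 8 in myoid-like cells (10.8 CPM, 4.66 to 21.3) and 13 in stromal-like cells (7.92 CPM, 4.22 to 13.5). Among germ cells, the differentiating-like cells had 15 UMIs (9.02 CPM, 5.05 to 14.9), the SSC-like 9 (3.68 CPM) and the progenitor-like 4 (2.77 CPM). The Sertoli-like level was 2.37 times the stromal-like one (1.25 to 4.79), while none of the neighbours in the order of the 6 classes differed beyond counting error.

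Sfrp1, the gene of a secreted decoy for WNT proteins, was a stromal and myoid transcript with a lower level in germ cells. It stood at 99.9 CPM (85.2 to 116) in stromal-like cells and 62.1 CPM (45.5 to 82.9) in myoid-like cells. In Sertoli-like cells there were 3 UMIs in 255 cells (1.31 CPM, 0.269 to 3.82), which is 1.31% of the stromal-like level (0.267% to 3.89%), where the stromal markers reached 0.461%. The 46 UMIs of SSC-like cells gave 18.8 CPM (13.8 to 25.1), the 31 of progenitor-like cells 21.4 CPM (14.6 to 30.4) and the 14 of differentiating-like cells 8.42 CPM (4.60 to 14.1). The germ cell levels were 8.42% to 21.5% of the stromal-like level, above the 0.628% to 0.741% of the stromal markers. The genes most like Sfrp1 over the 11 clusters were Col25a1 (r = 0.942), Aff3 (r = 0.935) and Twist1 (r = 0.929).

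Shisa6, which encodes a transmembrane protein described as an inhibitor of WNT signalling in spermatogonia, was found almost solely in Sertoli-like cells in this library. There were 37 UMIs in 12.9% of the Sertoli-like cells (16.1 CPM, 11.3 to 22.2). Germ cells had 2 UMIs among 5555070 (0.360 CPM, 0.0436 to 1.30), 1 in an SSC-like and 1 in a differentiating-like cell, so the Sertoli-like level was 44.8 times the germ cell level (11.5 to 383). There were 0 UMIs in 79 progenitor-like cells, where 3 cells with a UMI would be 3.80%. No UMI was found in stromal-like or myoid-like cells. With 3 counts put in place of 0 in each (1.83 and 4.05 CPM), the Sertoli-like level was 8.82-fold and 3.98-fold higher. The lower ends of the intervals of these ratios were 6.82 and 3.08. With 39 UMIs in all, Shisa6 was under the 50 UMIs set for naming similar genes.

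Ctnnb1, the gene of beta-catenin, was measured in every class. Sertoli-like cells had 200.4 CPM (182 to 219.6), myoid-like cells 122 CPM (97.7 to 149) and stromal-like cells 96.9 CPM (82.4 to 113). Among germ cells, the SSC-like had 93.7 CPM (81.9 to 107), the progenitor-like 75.4 CPM (61.9 to 90.9) and the differentiating-like 88.4 CPM (74.7 to 104). The Sertoli-like level stood above that of each other class, by 1.65 times (1.31 to 2.09) over the myoid-like one, while no other neighbours in the order differed beyond counting error. Beta-catenin is also a structural part of cell junctions, and a transcript level says nothing about its location or stability. Ctnnb1 was the only one of the 10 genes found in macrophage-like cells (94.9 CPM), the other 9 having 0 UMIs there.

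Lef1, a transcription factor gene of the TCF and LEF family, was a germ cell transcript among the classes compared. The 23 UMIs of SSC-like cells gave 9.41 CPM (5.96 to 14.1), the 16 of progenitor-like cells 11.1 CPM (6.32 to 17.97) and the 10 of differentiating-like cells 6.01 CPM (2.88 to 11.1), values that did not differ beyond counting error. Sertoli-like cells had 1 UMI, and stromal-like and myoid-like cells had none. In myoid-like cells 3 counts would be 4.05 CPM, which lies inside the differentiating-like interval. The Sertoli-like level was 0.0494 of the germ cell level (0.00123 to 0.288). With 3 counts put in place of 0, the stromal-like level was 4.83-fold lower (ratio 0.207, upper end of the interval 0.265). Between 6.02% and 17.7% of the cells of a germ cell class had a UMI, and between 1.03% and 5.46% after thinning to 5000 UMIs. The unnamed cluster of 26 cells held 2 Lef1 UMIs (12.1 CPM, 1.47 to 43.8).

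Axin2, a widely used readout of canonical signalling, was highest in differentiating-like germ cells. It had 41 UMIs there (24.6 CPM, 17.7 to 33.4), 26 in SSC-like cells (10.6 CPM, 6.95 to 15.6) and 19 in progenitor-like cells (13.1 CPM, 7.91 to 20.5). Among the somatic classes, myoid-like cells had 18.9 CPM (10.3 to 31.7), Sertoli-like cells 14.4 CPM (9.90 to 20.2) and stromal-like cells 7.92 CPM (4.22 to 13.5). No neighbours in this order differed beyond counting error. The stromal-like level was 0.511 of the level of all germ cells (0.262 to 0.922), and the Sertoli-like level did not differ from it beyond counting error (ratio 0.929, 0.602 to 1.40). A mitochondrial limit of 5% left 67 germ cells, with a median of 5310 UMIs per cell. The log2 ratio of Axin2 in Sertoli-like over germ cells was then -1.76, with an interval that included 0. Between SSC-like and progenitor-like cells the log2 ratio of Axin2 was -0.31 (-1.21 to 0.63), but at a resolution of 1.2 it was -2.30, and there and without a mitochondrial limit its interval left out 0. At a resolution of 1.2 only 45 germ cells were SSC-like, and clusters of 77 and 61 cells were progenitor-like. A UMI of Axin2 was found in 21.8% of differentiating-like, 18.75% of SSC-like and 21.5% of progenitor-like cells, which differ in depth. Thinning to 5000 UMIs left out 36 of the 133 differentiating-like cells. Axin2 was then found in 13.4% of 97 differentiating-like cells and in 5.46% and 6.94% of the SSC-like and progenitor-like cells.

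Within the differentiating-like class, Axin2 was higher in the cluster led by Kit. The class held a cluster of 101 cells led by Kit, Lmo1 and Stra8 and a cluster of 32 cells led by Prss50, Ly6k and Meioc. Axin2 stood at 31.0 CPM (22.1 to 42.4) in the first and at 4.92 CPM (0.596 to 17.8) in the second, a ratio of 6.30 (log2 ratio 2.66, 0.71 to 5.75). Lgr4 had 14 of its 15 UMIs in the Kit-led cells (11.1 CPM, 6.09 to 18.7), Sfrp1 had 13 of 14 (10.3 CPM) and Lef1 all 10 (7.95 CPM), and none of these 3 differed between the 2 clusters beyond counting error. Of the 101 Kit-led cells, 51 lay in a germ cell cluster of low RNA content, with a median of 4079 UMIs per cell against 20269 in the other 50. Kit itself stood at 19.3 CPM in the 51 (a UMI in 9.80% of cells) and at 123 CPM in the 50, while the Prss50-led cells had 39.4 CPM. Axin2 was at 33.1 CPM (22.8 to 46.4) in the 50 and at 23.1 CPM (8.50 to 50.4) in the 51, which did not differ beyond counting error.

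**Figure D4:**
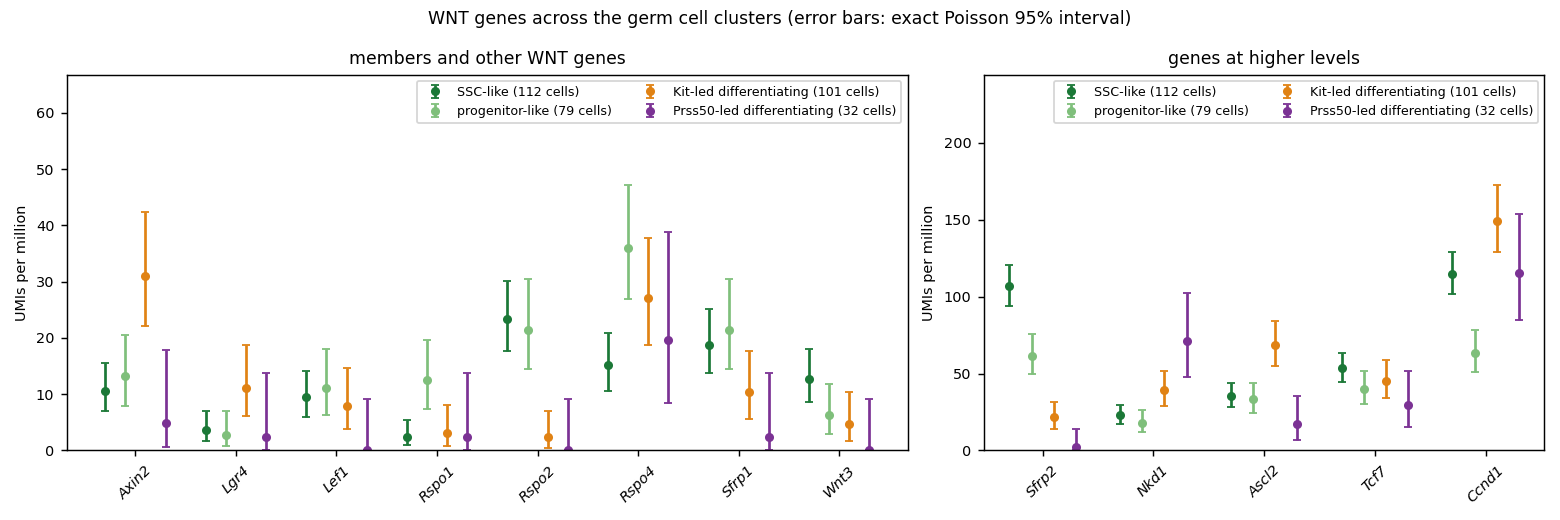
Level in CPM (linear y axes from 0, different in the 2 panels) of WNT pathway genes in the 4 germ cell clusters (SSC-like, progenitor-like, and the Kit-led and Prss50-led clusters of the differentiating-like class), with exact Poisson 95% intervals as bars. Axin2 and Ascl2, the latter added after its values were seen, are highest in the Kit-led cells (31.0 and 68.4 CPM), whereas Rspo2 is at 2.39 CPM or less in the Kit-led and Prss50-led clusters and at 21.4 CPM or more in the others.

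Across all genes, 4 comparisons of classes were made, each over the genes with at least 20 UMIs in the 2 classes together, counting genes whose level differed at least 2-fold. The 10 genes and the pathway lists were chosen with earlier results of these data known. The shares over all genes are therefore given as a background only, and enrichment was not tested. For Sertoli-like cells over germ cells, 9 of the 10 genes had enough UMIs, all but Wnt4. Of these, 5 were higher in Sertoli-like cells (Wnt5a, Wnt6, Ctnnb1, Lgr4 and Shisa6), against 24.2% of the 11729 genes compared, and 3 were lower (Rspo1, Lef1 and Sfrp1), against 27.5%. The median log2 ratio of the 9 genes was 1.2, that of all genes compared -0.11. The largest ratios were 99.3 for Wnt6 (67.9 to 151) and 44.8 for Shisa6, and Wnt5a stood at 12.7 (6.79 to 25.9), while Ctnnb1 stood at 2.30 (2.02 to 2.61). Axin2 was the one gene of the 9 within 2-fold.

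For stromal-like cells over germ cells, 9 genes had enough UMIs, all but Shisa6. The higher genes were 5, Wnt4, Wnt5a, Wnt6, Rspo1 and Sfrp1, against 20.5% of 11719 genes, and the lower gene was Lef1, against 36.4%. The ratio was 50.1 for Wnt6 (33.9 to 77.0), 34.1 for Wnt5a (18.8 to 67.9), 15.0 for Wnt4 (6.47 to 40.3), 6.10 for Sfrp1 (4.69 to 7.97) and 2.45 for Rspo1 (1.33 to 4.45). Ctnnb1 was close to 1 (1.11, 0.922 to 1.33). The median log2 ratio of the 9 was 1.29, against -0.48 over all genes compared.

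For myoid-like cells over germ cells, 8 genes had enough UMIs. The higher genes were 4, Wnt5a, Wnt6, Sfrp1 and Lgr4, against 17.7% of 11252 genes, and the lower ones were 2, Rspo1 and Lef1, against 36.4%. The intervals of Lgr4 (2.14, 0.844 to 4.83) and Rspo1 (0.259, 0.00633 to 1.56) include 1. Lef1 had 0 UMIs in myoid-like cells. Its ratio of 0.459 comes from 3 counts put in place of 0, and the upper end of its interval, 0.587, lies within 2-fold. Wnt5a was 27.5 times higher (14.3 to 57.2) and Sfrp1 3.79 times (2.60 to 5.46). Wnt4 had 17 UMIs over both classes and was 10.7 times higher in myoid-like cells (3.68 to 33.2). The 3 comparisons share the germ cells, so their ratios are not independent of each other.

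For undifferentiated-like cells, that is SSC-like and progenitor-like cells together, over differentiating-like cells, 7 genes had enough UMIs. Rspo1 and Sfrp1 were 2-fold higher, against 10.4% of 10519 genes, and Axin2 and Lgr4 were 2-fold lower, against 8.15%. The ratio was 2.35 for Sfrp1 (1.32 to 4.50), 0.469 for Axin2 (0.3004 to 0.735) and 0.371 for Lgr4 (0.162 to 0.835). The interval of Rspo1 (2.05, 0.768 to 6.89) includes 1, and without the cells of the low-RNA germ cell cluster 1 gene in place of 2 was 2-fold higher. Ctnnb1 (0.983, 0.808 to 1.201), Lef1 (1.67, 0.817 to 3.75) and Wnt6 (1.88, 0.695 to 6.36) did not differ beyond counting error. In the set of UMIs that took no part in the clustering of the count split, the log2 ratio was -1.17 for Axin2 (-2.05 to -0.28), -1.55 for Lgr4 (-3.09 to -0.06) and 1.84 for Sfrp1 (0.51 to 3.54). Lef1 stood at 1.58 there (0.06 to 3.55), an interval that leaves out 0, and Rspo1 at 1.77 (-1.13 to 7.24).

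**Figure D5:**
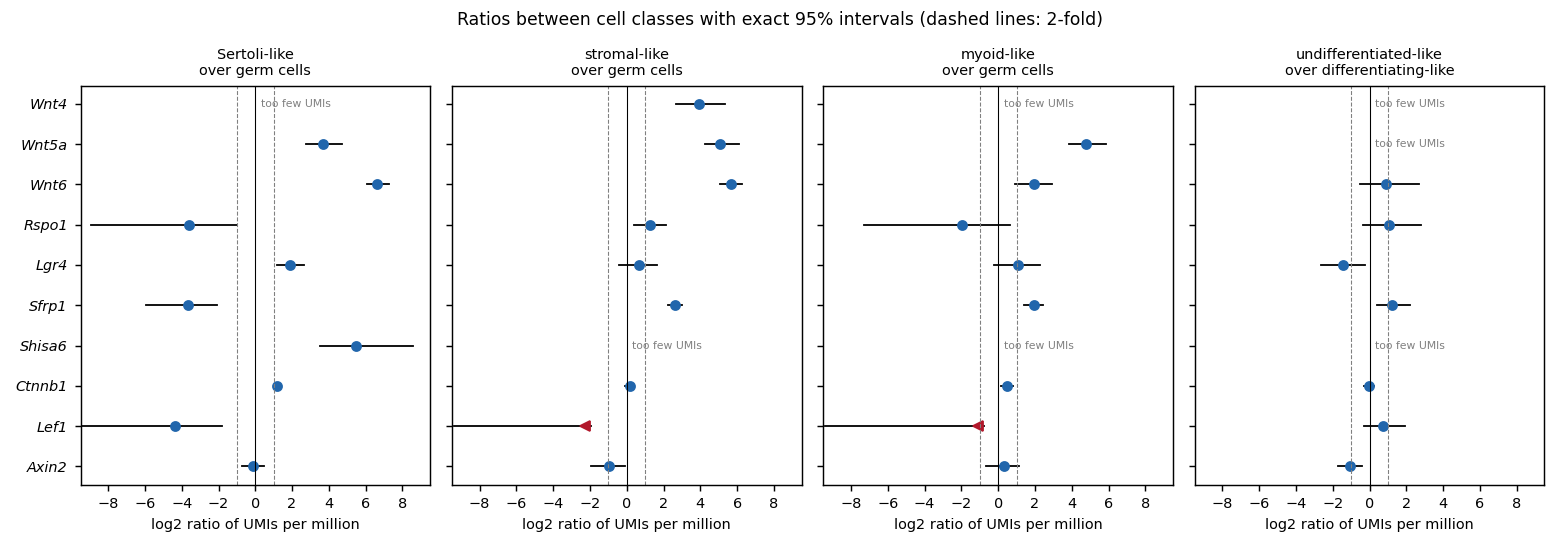
Log2 ratio of levels of the 10 genes in the 4 comparisons, with exact 95% intervals as lines cut at the edge of the axis, dashed lines at 2-fold, and triangles for bounds where 1 class had no UMI. Wnt6, Wnt5a and Shisa6 lie far to the right in Sertoli-like over germ cells and Lef1 to the left, while in the last panel Axin2 and Lgr4 lie left of 0 and Sfrp1 right of it.

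The other genes of the pathway were taken from 8 lists by role, with 80 genes besides the 10. Of the 43 with enough UMIs for Sertoli-like over germ cells, 11 were 2-fold higher and 12 lower. For stromal-like over germ cells 11 of 42 were higher and 16 lower, and for myoid-like over germ cells 13 of 40 were higher and 14 lower. Between undifferentiated-like and differentiating-like cells 7 of 36 were higher and 4 lower. The shares higher were 25.6%, 26.2%, 32.5% and 19.4% in this order of the comparisons, where 24.2%, 20.5%, 17.7% and 10.4% of all genes were. The shares lower were 27.9%, 38.1%, 35.0% and 11.1%, where 27.5%, 36.4%, 36.4% and 8.15% of all genes were.

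Among the other ligand genes, Wnt3 was a germ cell transcript, with 12.7 CPM (8.61 to 18) from the 31 UMIs of SSC-like cells, 9 UMIs in progenitor-like cells and 6 in the differentiating-like ones, and 1 UMI in all Sertoli-like, stromal-like and myoid-like cells. Its undifferentiated-like level was 2.85 times the differentiating-like one (1.201 to 8.23). For Wnt5b, stromal-like cells had 23.8 CPM, myoid-like cells 13.5 CPM and Sertoli-like cells 3.92 CPM, and undifferentiated-like cells had 5.397 CPM against 0.601 CPM in differentiating-like cells. Wls, which carries WNT proteins to the cell surface, lay between 44.4 and 48.6 CPM in the 3 somatic classes and had 4 UMIs in germ cells (0.720 CPM), so its Sertoli-like level was 61.7 times higher (23.4 to 231). Porcn, the gene of the enzyme that adds the lipid to WNT proteins, had between 7 and 10 UMIs in each somatic class and 5 in germ cells.

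Of the R-spondin genes, Rspo2 and Rspo4 were germ cell transcripts. Rspo2 stood at 23.3 CPM (17.7 to 30.2) in SSC-like and 21.4 CPM (14.6 to 30.4) in progenitor-like cells and at 1.80 CPM in differentiating-like cells, a 12.5-fold difference between undifferentiated-like and differentiating-like cells (4.15 to 62.0). Rspo4 was at 15.1 CPM for SSC-like and 36.0 CPM for progenitor-like cells, stood at 25.2 CPM for differentiating-like cells and did not differ between undifferentiated-like and differentiating-like cells (0.906, 0.621 to 1.34). Each of the 2 had at most 1 UMI in any of the 3 somatic classes.

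Receptor genes differed between the somatic classes. Fzd2 stood at 57.9 CPM in stromal-like and 62.1 CPM in myoid-like cells against 5.22 CPM in germ cells, ratios of 11.1 (7.25 to 17.4) and 11.9 (7.32 to 19.6), and at 5.23 CPM in Sertoli-like cells. Fzd3 showed the reverse, with 35.1 CPM in germ cells and 31.8 CPM in Sertoli-like cells against 2.44 CPM in stromal-like cells. Ryk, a co-receptor gene, was found in all 6 classes, between 42.0 CPM in stromal-like and 91.9 CPM in Sertoli-like cells.

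Among the inhibitor genes, Sfrp2 was distributed differently from Sfrp1. SSC-like cells had 107 CPM (94.2 to 121), progenitor-like cells 61.5 CPM (49.4 to 75.7) and differentiating-like cells 16.8 CPM, and its undifferentiated-like level was 5.34 times the differentiating-like one (3.63 to 8.16). In the somatic classes it had 13 UMIs in stromal-like cells (7.92 CPM), 1 in Sertoli-like and 0 in myoid-like cells. Dkk3 had 38 of its 39 germ cell UMIs in undifferentiated-like cells. Shisa2, of the same family as Shisa6, stood at 24.4 CPM in Sertoli-like cells and was 4.84 times higher there than in germ cells (3.02 to 7.91).

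Inside the cell, Csnk1a1, a kinase gene of the beta-catenin destruction complex, was within 2-fold in all 4 comparisons, from 171 CPM in stromal-like to 250.5 CPM in Sertoli-like cells. Ctnnbip1, an inhibitor of the binding of beta-catenin to TCF proteins, stood at 155 CPM in myoid-like and 101 CPM in stromal-like cells against 50.2 CPM in germ cells. Dvl1 was lower in undifferentiated-like than in differentiating-like cells (0.445, 0.247 to 0.803). The TCF genes divided between the compartments. Tcf7 stood at 46.4 CPM in germ cells and between 7.92 and 14.8 CPM in the somatic classes, while Tcf7l2 stood at 47.3 to 51.2 CPM in the somatic classes and 16.6 CPM in germ cells, within which it was 2.85 times higher in undifferentiated-like cells (1.55 to 5.75). Bcl9, a co-activator gene, lay between 31.9 and 44.4 CPM in all 6 classes, and Pygo1 was lower in undifferentiated-like than in differentiating-like cells (0.204, 0.0856 to 0.452).

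Genes reported as targets of the pathway did not follow 1 pattern. Ccnd1, a cyclin gene, stood at 109 CPM in germ cells and between 4.87 and 6.75 CPM in the somatic classes. Nkd1, a feedback inhibitor like Axin2, was highest in myoid-like cells (70.2 CPM), followed by differentiating-like cells (46.9 CPM), and was nearly absent from Sertoli-like cells (1.74 CPM). Its undifferentiated-like level was 0.449 of the differentiating-like one (0.326 to 0.621), and that of Nkd2 was 0.171 (0.0544 to 0.466). Unlike Axin2, Nkd1 was not low in the Prss50-led cells, where it stood at 71.4 CPM (47.8 to 103) against 39.0 CPM (28.8 to 51.5) in the Kit-led cells. For Bambi, stromal-like cells had 104 CPM, Sertoli-like cells 72.3 CPM and myoid-like cells 45.9 CPM against 22.9 CPM in germ cells.

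The order of the 10 genes over the 6 classes had 50 pairs of neighbours, of which 14 had an interval of the ratio above 1 and 9 had at most 3 UMIs on both sides. Since the classes were ranked by these same levels, the direction of each ratio was set by the ranking. The same count over all genes is not given, so the 14 pairs have no background beside them. The genes most like Ctnnb1 over the 11 clusters were Nudt4 (r = 0.971), Reep1 (r = 0.965) and Mro (r = 0.961), and those most like Lgr4 were F3 (r = 0.948), Stx1a (r = 0.937) and Slx1b (r = 0.929). For Axin2 they were Smyd5 (r = 0.901), Skp1a (r = 0.896) and Gm20604 (r = 0.889), and for Lef1 Ldb1 (r = 0.926), Rbm42 (r = 0.919) and St6galnac3 (r = 0.903). These values come from clusters of 1 library that differ in depth, and genes with few UMIs such as Lef1 give noisy profiles.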

How the data were processed

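Single-cell RNA was measured in 1 wild-type library. Per the labels and the study's methods, the authors made UMI counts with Cell Ranger 2.1.0 against mm10 and deposited them without normalization. Of 970 barcodes, 920 remained after 3 filters: a minimum of 500 genes, mitochondrial UMIs below 10%, and removal of the 4 doublets that scrublet marked (scanpy 1.11.5, expected rate 0.01, seed 0). Cells were clustered in Seurat 5.3.0 (R 4.3.3) with genes in at least 3 cells, counts log-normalized to 10000, 14 principal components and a resolution of 0.5, and germ cells were clustered again. A cluster took the class whose markers had the largest excess of mean expression over the other cells clustered with it. The names are therefore relative scores. It stayed unnamed with under 3 markers found in 10% of its cells, or with more markers of another class than its own among its top 10 genes. Hemoglobin genes were not counted there, a choice made after seeing that 1 barcode led them. A cluster also stayed unnamed when a low median depth came together with no marker of its own class among its top 10 genes. The cluster of 26 cells met the rule for T cells, with Cd3g among its top 10 genes and a summed 1321 CPM of the 6 T cell markers. It was left unnamed by judgement, because its leading genes also included Rgs5 and Higd1b. The 6 peritubular myoid markers summed to 2484 CPM there. The members and lists were chosen with earlier results of these data known. Levels are CPM, and a gene needs 20 UMIs over both classes to enter the counts of genes past 2-fold. In a ratio, a class with 0 UMIs enters at 3 counts, and no ratio is given where both have 3 or fewer. For the pathway lists, the 3 genes with the highest level in a role and those past 2-fold in both a somatic and a germ cell comparison are named. Genes most alike are the 3 of highest Pearson r among those with at least 100 UMIs, for members with at least 50 UMIs, and those of Rspo1 are not reported here. The ratio was tried on counts simulated with the counting error it assumes, so the trial cannot speak for variation between cells or mice. No p-values were computed, since cells are not replicates.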

Additional observations from a re-analysis of the deposited data

How the results depend on the processing

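Alternatives changed the filters, variable genes, principal components, resolution, minimum of UMIs and weighting, and 1 was added after the data were seen (leaving out the low-RNA germ cells). Of 110 counts of genes past 2-fold, 100 stayed within 1.5 times their main value. With a mitochondrial limit of 5%, 67 germ cells were left, and no germ cell stage could be named. They formed a single cluster with Stra8 among its leading genes. Its median was 5310 UMIs per cell, against 18216.5 for the germ cells of the main fit. In Sertoli-like over germ cells 2 genes were then higher and 0 lower (5 and 3 in the main fit). In myoid-like over germ cells 2 were higher and 0 lower (4 and 2). In undifferentiated-like over differentiating-like cells, 0 genes were higher without a mitochondrial limit, and 1 with variable genes by vst, with 20 principal components or without the low-RNA germ cells (2 in the main fit). With the count split, 0 genes were lower in myoid-like over germ cells and 1 in undifferentiated-like over differentiating-like cells. No log2 ratio whose interval left out 0 changed sign, and 840 of 869 alternative ratios lay inside the main interval or on the same side of a bound. In the count split, Rspo1 in myoid-like over germ cells and Wnt5a in undifferentiated-like over differentiating-like cells gave no ratio, because the floor of 3 counts for a class with 0 UMIs lay above the level of the other class, a rule set after the data were seen. Thinning moved 41 of 60 shares of cells with a UMI outside their interval. The Cidea-led cells were not set apart in the count split, with vst, with 20 principal components, at a resolution of 0.3 or with the 5% limit. The division of SSC-like from progenitor-like cells also moved. At a resolution of 0.3 neither class was named, and a cluster of 194 germ cells stayed unnamed. With 20 principal components 81 cells were SSC-like and 115 progenitor-like, against 112 and 79 in the main fit. Values that compare these classes therefore depend on the clustering. No paired analysis was possible because there is a single library. Depth limits Shisa6, Lef1, Rspo1 and Wnt4 most, each with 54 UMIs or fewer.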

Other observations

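Cells with UMIs of more than one of the genes were counted in the somatic classes, as a description. Of the 229 Sertoli-like cells with a Wnt6 UMI, 40 also had a Wnt5a UMI (17.5%), against 26.9% of the only 26 cells without Wnt6. In stromal-like cells 67 of 155 cells with Wnt6 had Wnt5a (43.2%), against 38.7% of the cells without it. In stromal-like cells 36 of the 79 cells with Wnt5a also had Sfrp1 (45.6%), against 49.5% of the cells without Wnt5a. In myoid-like cells 7 of the 34 cells with Wnt5a had Sfrp1 (20.6%), against 33.3% of the cells without Wnt5a. Of the 13 myoid-like cells with Wnt6, 7 had Wnt5a (53.85%) and 8 had Sfrp1 (61.54%), against 33.33% and 23.46% of those without Wnt6. These shares come from 1 library and depend on the depth of each cell, and no test was made.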
